A study of Macaca fascicularis with 11 samples.

Results

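ISL1, row ENSMFAG00000035949 of the deposited matrix, was 1 of 19367 genes measured in 33330 single cells of cynomolgus macaque (Macaca fascicularis) embryos. It was described here in all 11 libraries, across 6 cell types, 3 days of culture and both genotypes. ISL1 encodes a transcription factor with LIM domains, which bind partner proteins such as LDB1 and LDB2, and a homeodomain, which binds DNA. It is best known from progenitors of the heart, from motor neurons and from the endocrine pancreas. The amnion, the tissue in which the study placed the gene, is the thin epithelium that arises next to the epiblast and encloses the amniotic cavity.

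The embryos came from frozen blastocysts and were grown in vitro until Day 10, Day 12 or Day 14. Wild-type embryos (WT, 12 in 6 libraries) were compared with embryos labelled ISL1 hypomorphic mutants (mt, 11 in 5 libraries), whose zygotes had been injected with 2 guide RNAs against ISL1 and with Cas9, given as SpCas9 mRNA in the labels but as protein in the study's methods. A library pooled between 1 and 3 embryos. The number of a library is its batch in the labels, B1 or B2, and both genotypes have libraries of either batch. The wild-type libraries 1 and 2 held 2 and 3 embryos at Day 10, then 1 and 2 at Day 12, while each held 2 at Day 14. The mutant was represented by 1 library of 3 embryos at Day 10, and its libraries 1 and 2 held 3 and 1 embryos at Day 12 and again 3 and 1 at Day 14. The mutants were mosaic, since the study found insertions and deletions of different sizes within a single embryo, so a mutant library mixes cells with different ISL1 alleles. Most of the edits it reported were large deletions that shift the reading frame, and in-frame deletions were infrequent. Most cells in the mutant amnion region lacked ISL1 protein in its stainings. In ISL1-null human cells made into amniotic ectoderm-like cells it found ISL1 RNA reduced but not lost, without the protein. The wild-type embryos are not labelled as injected, so the effect of injection and that of the edit cannot be told apart.

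The study genotyped the embryos with a pair of primers for the edited ISL1 locus, which are shown because they mark the region where the alleles of the mutants differ. Each is 20 bases long and written 5′ to 3′.
Forward primer: ctctttcagctttggcaacc
Reverse primer: gagcagatcaaattgcccat
The study places the edits near the start of the coding sequence. The libraries were made with a 3′ kit that counts transcripts from their other end, so an ISL1 count does not tell an edited transcript from an intact one. A normal ISL1 level in a mutant library is therefore no check of its genotype, in either direction.

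Counts are of molecules, since every captured transcript had been tagged by a unique molecular identifier (UMI) before amplification. Between 36654977 and 164808415 UMIs were counted per library, from 325 to 9625 cells with a median of 10916 to 142180 UMIs per cell. Across the 55 pairs of libraries at most 16 cell barcodes were shared, or 0.520% of the smaller library. No deposited file names the cells, so they were clustered anew with ISL1 left out of the genes used, and clusters were named from lists of other markers. Clusters were called amnion-like (379 cells), endoderm-like (493), epiblast-like (1388), mesoderm-like (364), extraembryonic mesenchyme-like (ExE-Mech-like, 6576) and trophoblast-like (22576). The other 1554 cells fell in clusters that stayed unnamed, 221 of them in Day 14 clusters that carried amnion markers but were led by other genes. These unnamed clusters held 36.3% and 41.0% of the cells of the wild-type Day 10 libraries and at most 6.61% of any other library. Wild-type Day 12 library 1 had no amnion-like cell, and wild-type Day 10 library 1 had 4, under the minimum of 5 cells set for a sum.

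The labels held up unevenly against the 15 amnion markers, among them WNT6, GABRP and TFAP2A. In 8 of the 9 libraries with at least 5 amnion-like cells, between 10 and 14 markers were highest in the amnion-like cells. In wild-type Day 10 library 2 only 6 were, and the summed marker level of 912 CPM (UMIs of a gene per 1000000 UMIs of the sum) lay below the 1247 CPM of another type. Scrublet, which marks likely doublets, marked 4 of the 11 amnion-like cells of that library and 5 of the 379 in all, and no cell was removed. All tests, ranges and medians that use wild-type amnion-like cells at Day 10 rest on this library.

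ISL1 transcripts were rare and held by few cells. A library had between 41 and 396 ISL1 UMIs, 2814 in all, spread over 1414 cells. The removal of free RNA by the authors had taken 9 ISL1 UMIs from the same cells. Between 0.489% and 4.92% of the cells of a library held 50% of its ISL1 UMIs. Of the 125 cells with at least 5 ISL1 UMIs, 69 were amnion-like, 19 were in the unnamed Day 14 clusters with amnion markers and 23 were ExE-Mech-like. Trophoblast-like cells, the most numerous type, gave 3 of the 125, endoderm-like cells 2 and mesoderm-like cells 2, and the other 7 were in further unnamed clusters.

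ISL1 was highest in amnion-like cells. Their levels were 11.7 CPM in wild-type Day 10 library 2, 191 CPM in wild-type Day 12 library 2, and 45.8 and 143 CPM in the wild-type Day 14 libraries. In the mutant they were 119 CPM at Day 10, 31.4 and 132 CPM at Day 12, and 241 and 194 CPM at Day 14. The amnion-like level was the first of all named types in 8 of 9 libraries, and in wild-type Day 10 library 2 it stood beside 11.8 CPM in endoderm-like cells. Against the trophoblast-like cells of the same library the amnion-like level was between 11.2-fold and 299-fold higher, with a median of 124-fold over 9 libraries.

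**Figure D1:**
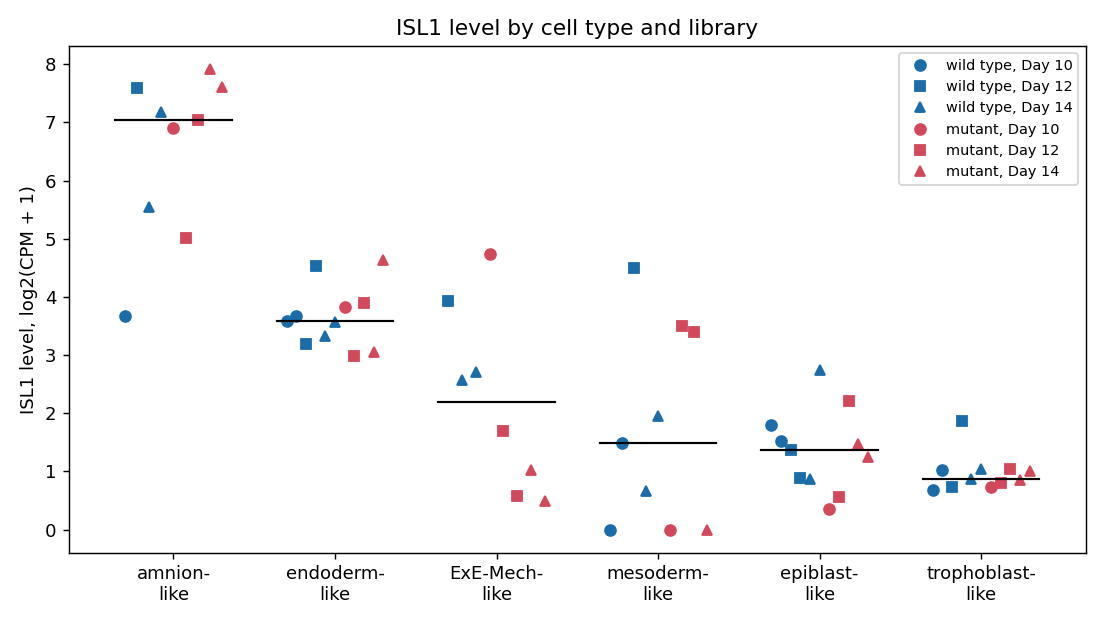
ISL1 level on the log2(CPM + 1) scale (vertical axis) in each cell type (horizontal axis), with 1 point for each library that had at least 5 cells of the type, wild type in blue and mutant in red, the day by the shape of the point, and a black line at the median. Amnion-like cells lie highest with a median of 132 CPM, endoderm-like cells sit close together between 6.95 and 23.7 CPM, and the ExE-Mech-like and mesoderm-like cells spread widely.

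Endoderm-like cells, the counterpart of the yolk sac lining, came next. Their ISL1 level was 11.0 and 11.8 CPM at Day 10, then 8.18 and 22.2 CPM at Day 12 and finally 9.08 and 10.8 CPM at Day 14 in the wild type. In the mutant it was 13.1 CPM at Day 10, 6.95 and 13.9 CPM at Day 12, and 7.31 and 23.7 CPM at Day 14. ISL1 was detected in endoderm-like cells of all 11 libraries, and the genotypes overlapped at Day 12 and at Day 14. These sums rested on 4 to 30 ISL1 UMIs each, and the 95% Poisson interval of the highest one reached from 6.46 to 60.7 CPM.

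The ExE-Mech-like cells, loose tissue between trophoblast and yolk sac that is marked by COL3A1 and HGF, differed widely between libraries, from 0.405 to 25.8 CPM. They held 14.2 CPM in wild-type Day 12 library 2, and 4.94 and 5.56 CPM in the wild-type Day 14 libraries. The mutant Day 10 library had 25.8 CPM from 59 such cells with 167 ISL1 UMIs, the mutant Day 12 libraries 2.25 and 0.491 CPM, and the mutant Day 14 libraries 1.04 and 0.405 CPM. On both later days the wild-type levels thus lay above the mutant ones. The wild-type libraries of Day 10, and library 1 of Day 12, had no ExE-Mech-like sum.

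Mesoderm-like cells were few, and their ISL1 counts rested on the Day 12 libraries. Wild-type Day 12 library 2 had 21.5 CPM from 29 UMIs, and the mutant Day 12 libraries had 10.3 and 9.55 CPM from 6 and 1 UMIs. At Day 10 no ISL1 UMI was found in 20 wild-type cells of library 1 and in 14 mutant cells, which allows up to 2.22 and 2.35 CPM (3 counts), and library 2 of the wild type had 1.79 CPM. At Day 14 the wild-type libraries had 0.576 and 2.86 CPM, and 17 cells of mutant library 1 had none, which allows up to 16.8 CPM and is above the mutant Day 12 levels. Mutant Day 14 library 2 had 4 mesoderm-like cells, under the minimum for a sum, with 2 ISL1 UMIs (20.1 CPM). Their 11 mesoderm markers summed to 282 CPM, 6 of them at 0, beside 4024 CPM of ExE-Mech markers, so their label is doubtful. The mesoderm-like label was weak at Day 10, where the summed mesoderm markers of wild-type library 1 reached 1548 CPM against 1658 CPM in another type. It was also weak in the 6 cells of mutant Day 12 library 2, where 3 of the 11 mesoderm markers were at 0 and the rest summed to 1594 CPM beside 3933 CPM of trophoblast markers.

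Epiblast-like cells (0.272 to 5.68 CPM) and trophoblast-like cells (0.612 to 2.65 CPM) had the lowest levels, with medians of 1.57 and 0.834 CPM over all 11 libraries. The highest trophoblast-like value was that of wild-type Day 12 library 2, which also had the highest ISL1 level over all its cells, 8.38 CPM. At these low levels trophoblast-like cells, the most numerous type over all libraries, still gave between 9.34% and 68.3% of the ISL1 UMIs of a library. Amnion-like cells, between 0.696% and 2.24% of the cells of a library with at least 5 of them, gave between 13.1% and 49.6%.

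**Figure D2:**
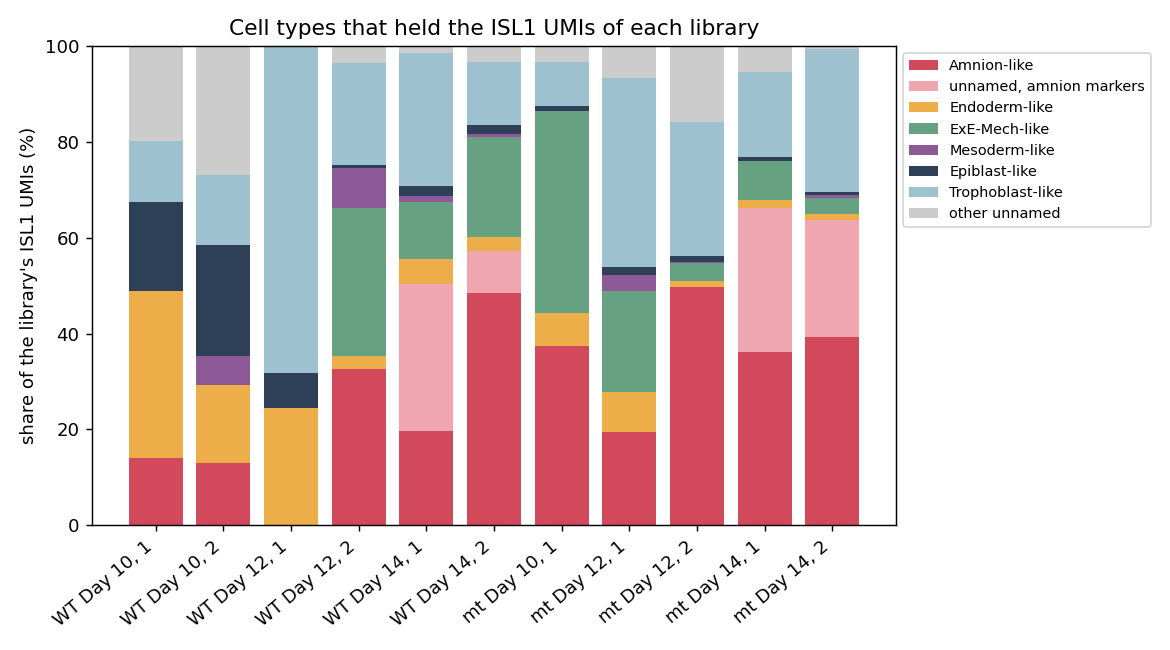
Share of the ISL1 UMIs of each library (vertical axis, percent, stacked to the whole library) that lay in each cell type (colours), for the 11 libraries named by genotype, day and library number on the horizontal axis. Amnion-like cells (dark red) gave up to 49.6%, the unnamed Day 14 clusters with amnion markers (light red) 30.7% and 8.74% in the wild type and 30.0% and 24.4% in the mutant, and wild-type Day 12 library 1 is filled by trophoblast-like, endoderm-like and epiblast-like cells.

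In the order of the medians, amnion-like cells (132 CPM, 9 libraries) were followed by endoderm-like (11.0 CPM, 11 libraries), ExE-Mech-like (3.60 CPM, 8 libraries), mesoderm-like (1.79 CPM, 9 libraries), epiblast-like (1.57 CPM, 11 libraries) and trophoblast-like cells (0.834 CPM, 11 libraries). The 5 pairs of neighbours were compared within libraries by an exact two-sided sign-flip permutation test of the differences in log2(CPM + 1). Libraries of both genotypes and all days entered together. The pairs were picked by the order of the same values, so the p-values are no independent test of that order. Amnion-like cells exceeded endoderm-like cells in 8 of 9 libraries, by 2.78 ± 1.33 (SD) on that scale (exact permutation p = 0.0078, adjusted over the 5 pairs p = 0.039). Endoderm-like cells exceeded ExE-Mech-like cells in 7 of 8 libraries, by 1.51 ± 1.61 (exact permutation p = 0.039, adjusted p = 0.098). The lower neighbours did not differ beyond their spread, with 0.47 ± 2.51 for ExE-Mech-like over mesoderm-like cells, higher in 4 of 7 libraries (exact permutation p = 0.64). Mesoderm-like cells exceeded epiblast-like cells in 3 of 9 libraries, by a mean of 0.34 ± 1.87 (exact permutation p = 0.59), and epiblast-like exceeded trophoblast-like cells in 7 of 11, by 0.39 ± 0.77 (exact permutation p = 0.12).

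The types of each day and genotype were then compared with edgeR's quasi-likelihood test, each against the mean of the other types, with the library as a block and a false discovery rate (FDR) of 1% over all genes. Such a contrast calls many genes in a distinct tissue, so the percentage of all tested genes called in the same direction is given beside each. ISL1 was higher in wild-type amnion-like cells at Day 12 by 4.53 ± 0.36 (log2 fold change ± SE, adjusted p = 0.0012, 0.432% of genes called higher) and at Day 14 by 5.02 ± 0.34 (adjusted p = 1.2e-05, 2.8% called higher). The Day 12 value rests on 1 amnion-like sum, which the fit takes to vary as the other types do, and its call was lost without the library block (4.87, adjusted p = 0.018). In the mutant, ISL1 was higher in amnion-like cells at Day 12 by 4.77 ± 0.49 (adjusted p = 2.6e-05, 6.66% called higher).

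At Day 14 the mutant amnion-like excess was 8.43 (adjusted p = 1.4e-08, 3.5% called higher). This fit includes a mesoderm-like sum of 17 cells with no ISL1 UMI, whose level has no lower bound on the log scale. The size of 8.43 depends on that sum, so no standard error is given and no exact size is read from it. A fit of the sums with at least 20 cells, which leaves out that sum and an endoderm-like sum of 11 cells, gave 6.94 (adjusted p = 4.6e-06). At Day 10 the wild-type amnion-like excess of 2.13 ± 0.62 missed the threshold (adjusted p = 0.16). The 1 mutant library of Day 10 allowed no such test.

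Endoderm-like cells passed in 1 of these fits, at Day 10 in the wild type, with 2.32 ± 0.44 (adjusted p = 0.0022, 14.3% of genes called higher). In the other fits ISL1 was 0.85 ± 0.48 and 1.48 ± 0.48 in wild-type endoderm-like cells at Day 12 and Day 14 (adjusted p = 0.25 and 0.045), and 1.05 ± 0.85 in mutant ones at Day 12 (adjusted p = 0.39). At Day 14 in the mutant it was 3.15 ± 1.23 (adjusted p = 0.11), in the fit with the mesoderm-like sum at 0. All 5 differences were positive.

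Trophoblast-like cells were below the mean of the other types in every wild-type fit. ISL1 was lower there by 2.17 ± 0.48 at Day 10 (log2 fold change -2.17, adjusted p = 0.0038, 14.6% of genes called lower), 2.92 ± 0.40 at Day 12 (-2.92, adjusted p = 0.00071, 8.18% called lower) and 2.48 ± 0.44 at Day 14 (-2.48, adjusted p = 0.00089, 11.7% called lower). The Day 10 call was lost with at least 20 cells per sum (-1.76, adjusted p = 0.014) and without the library block (-2.19, adjusted p = 0.012). In the mutant it was lower by 2.83 ± 0.62 at Day 12 (-2.83, adjusted p = 0.0019, 18.0% called lower). Epiblast-like cells passed at Day 12 in the wild type, where ISL1 was lower by 3.35 ± 0.59 (-3.35, adjusted p = 0.0054, 3.29% called lower), a call that was lost without the library block (-3.61, adjusted p = 0.031). In the other epiblast-like fits ISL1 did not pass, with -0.64 and -1.62 in the wild type at Day 10 and Day 14 (adjusted p = 0.33 and 0.075), -2.16 in the mutant at Day 12 (adjusted p = 0.090) and 0.08 ± 1.37 in the mutant at Day 14 (adjusted p = 1), the fit with the sum at 0. Mesoderm-like cells passed in no fit and went both ways, with -1.65, 0.74 and -2.78 on the successive wild-type days (adjusted p = 0.12, 0.57 and 0.032) and 1.44 in the mutant at Day 12 (adjusted p = 0.60).

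In the wild type, ISL1 in ExE-Mech-like cells lay within the error of the average over the remaining types, with 0.15 ± 0.40 at Day 12 and 0.38 ± 0.39 at Day 14 (adjusted p = 0.91 and 0.54). In the mutant the difference at Day 12 was -2.27 ± 0.66 (adjusted p = 0.016). For mutant Day 14 the fit could not estimate the ExE-Mech-like and trophoblast-like differences because of the sum at 0, and with at least 20 cells a sum they were -3.15 and -2.77 (adjusted p = 0.00049 and 0.00046).

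The share of cells with an ISL1 UMI depends on depth, so it was computed as found and with each cell thinned to 10000 UMIs, leaving out shallower cells. As found, the median over libraries was 70.4% of amnion-like cells (31.9% to 93.8%), 19.1% of endoderm-like (4.55% to 43.8%), 6.02% of ExE-Mech-like (0.803% to 62.7%) and 3.71% of trophoblast-like cells (0.977% to 10.5%). After thinning it was 66.7% of amnion-like cells (18.2% to 84.2%), 8.00% of endoderm-like cells (2.13% to 28.6%), 3.03% of ExE-Mech-like cells (0.303% to 27.1%) and 0.830% of trophoblast-like cells (0.339% to 2.97%). With 5000 UMIs per cell the medians were 35.5% of amnion-like and 4.35% of endoderm-like cells, and 0.346% of trophoblast-like cells. The trophoblast-like share is given as the comparison level, and how much of it was free RNA was not measured. The amnion-like share was above its highest value in all 9 libraries in both forms. Of the 4 mutant ExE-Mech-like shares of Day 12 and Day 14, 3 (0.998%, 0.803% and 0.845% as found) lay below the trophoblast-like share of the same library, so no expression beyond that level is read from them. In CPM, mutant Day 14 library 1 had 1.04 in ExE-Mech-like and 0.808 in trophoblast-like cells, and 1 of its ExE-Mech-like cells held 6 ISL1 UMIs. That of mutant Day 12 library 1, 3.55%, lay above the 1.46% of its trophoblast-like cells.

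**Figure D3:**
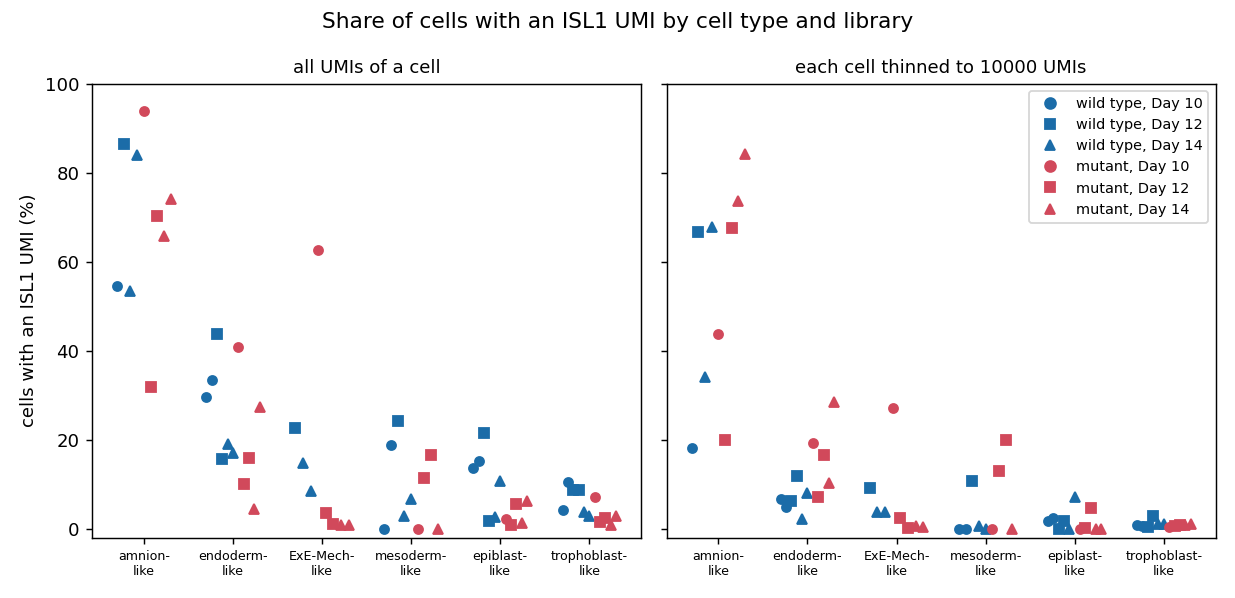
Share of cells with at least 1 ISL1 UMI (vertical axis, percent) by cell type and library, with all UMIs of a cell on the left and after thinning each cell to 10000 UMIs on the right; colours and shapes are those of the plot of levels. The median amnion-like share over libraries is 70.4% as found and 66.7% after thinning, and the median endoderm-like share 19.1% and 8.00%.

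Amnion-like cells fell into separate clusters on the later days, and ISL1 was counted in each. At Day 12, a cluster led by SLC7A3, CDX1 and TBX3 had 143 CPM in the wild type and 26.7 and 97.1 CPM in the mutant, and a cluster led by HAND1, WFDC2 and KRT18 had 374 CPM (4 cells) and 36.2 and 151 CPM. At Day 14, a cluster led by CLDN10 and HAND1 with the amnion marker HEY1 had 93.4 and 184 CPM in the wild type and 311 and 191 CPM in the mutant. The other Day 14 amnion-like cluster, led by CLDN10 with CDO1 and CDX1, had 19.8 and 125 CPM in the wild type and 152 and 199 CPM (4 cells) in the mutant. In every one of these clusters the 2 libraries of at least 1 genotype were apart by more than their 95% Poisson intervals, so no order of the clusters is read from them.

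The unnamed Day 14 clusters with amnion markers also held ISL1, above the named amnion-like level in both wild-type libraries and below it in both mutant ones. They were led by genes such as IGFBP5, WFDC2, TPM1 and CTHRC1, the last a marker of ExE-Mech, and were kept apart for that reason. ISL1 was at 184 and 438 CPM in the wild type (20 and 2 cells) and at 98.5 and 176 CPM in the mutant (173 and 26 cells). Of these cells, 91 lay in a shallow cluster. At Day 12, an unnamed cluster of 45 cells led by COL3A1 and PITX1 had 61.8 CPM over the libraries, and the ExE-Mech-like cluster richest in ISL1 had 79.6 CPM in the wild type, where all 8 of its cells had a UMI.

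**Figure D4:**
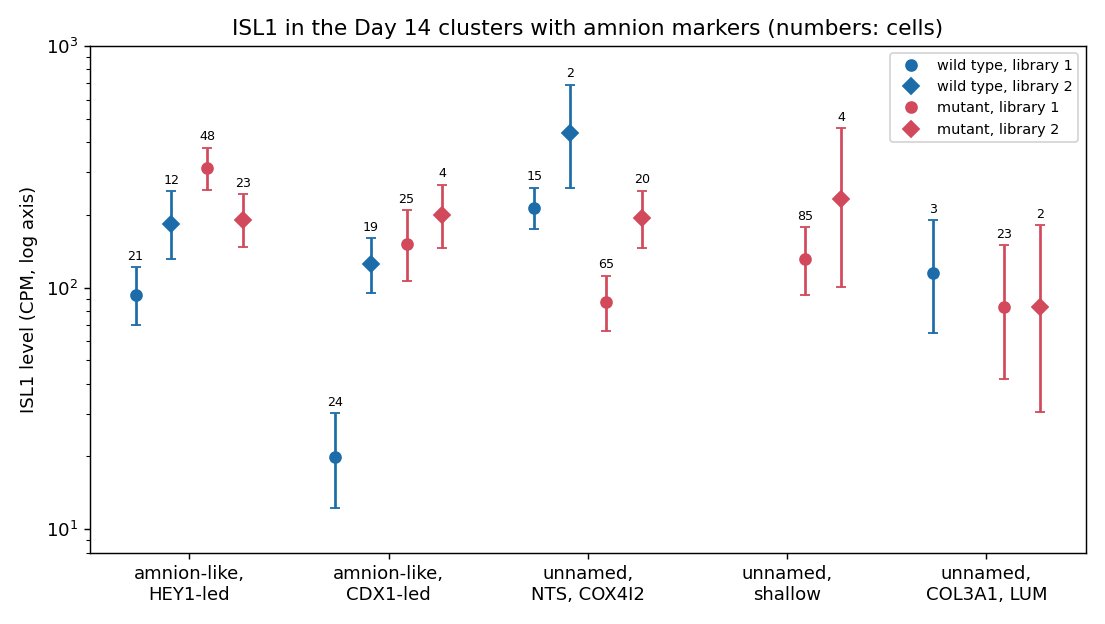
ISL1 level (vertical axis, CPM on a log axis) in the 5 Day 14 clusters with amnion markers (horizontal axis), for each wild-type (blue) and mutant (red) library, with bars for the 95% Poisson interval and the number of cells above each; 2 wild-type cells of the shallow cluster had no ISL1 UMI and are not drawn. Wild-type library 1 is lowest in the CDX1-led cluster with 19.8 CPM and has 213 CPM in the unnamed cluster with NTS and COX4I2.

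Mutant and wild-type embryos were compared type by type, with 1 edgeR fit per type over the genotype-by-day groups. ISL1 passed the FDR of 1% in none of the 17 contrasts of a type and day. At an unadjusted p under 0.05 there were 4. DESeq2, run as an alternative, called 2, and edgeR without its filter on low counts called 1, amnion-like cells at Day 10. Over all genes these contrasts called 0.0292% of 188263 gene tests, so few genes passed with these numbers of libraries. The p-values measure the spread between libraries, which are pools of embryos, and groups of 1 library borrow their spread from the others.

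In amnion-like cells the mutant differed from the wild type by 3.25 ± 0.97 (log2 fold change ± SE) at Day 10 (adjusted p = 0.35), -1.18 ± 0.70 at Day 12 (adjusted p = 0.59) and 1.31 ± 0.60 at Day 14 (adjusted p = 0.26). At Day 14 both mutant values, 241 and 194 CPM, lay above both wild-type values, 45.8 and 143 CPM. The libraries labelled B1 had 45.8 CPM in the wild type and 241 CPM in the mutant, and those labelled B2 143 and 194 CPM. The study describes its Day 14 embryos of both genotypes as collected in 2 batches. It does not say whether equal labels of the 2 genotypes mark a shared collection. At Day 12 the wild-type value of 191 CPM, labelled B2, lay above both mutant values, 31.4 and 132 CPM, the second also labelled B2. With the unnamed clusters counted as amnion-like, an alternative chosen after seeing the data, the Day 14 difference was 0.62 (adjusted p = 0.49). Within the unnamed clusters alone the mutant values, 98.5 and 176 CPM, lay below the wild-type ones, 184 and 438 CPM, the last from 2 cells. In these sums the ExE-Mech markers were at 1123 and 292 CPM in the wild type and at 2905 and 2507 CPM in the mutant, and the trophoblast markers at 274 and 219 CPM and at 1825 and 1422 CPM. Their amnion markers were at 2574 and 2092 CPM in the wild type and at 2108 and 2292 CPM in the mutant. The unnamed clusters held 20 and 2 wild-type cells beside 45 and 31 named ones, and 173 and 26 mutant cells beside 73 and 27. The difference of 1.31 thus leaves out more cells with amnion markers in the mutant than in the wild type. The Day 10 difference sets 1 mutant library against the wild-type library of doubtful label. The 4 amnion-like cells of the other wild-type Day 10 library, with 49.2 CPM, were too few for the fit.

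Other marker lists moved with genotype in the amnion-like sums, and their part in the ISL1 level was not tested. At Day 10 the epiblast markers summed to 5820 CPM in the wild-type library and to 1166 CPM in the mutant one. The trophoblast markers were at 964 and 450 CPM, the mesoderm markers at 568 and 238 CPM and the amnion markers at 912 and 2503 CPM. The ExE-Mech markers were at 86.2 and 271 CPM, and the endoderm markers at 160 and 223 CPM. At Day 12 the 14 trophoblast markers summed to 81.3 CPM in the wild type and to 1247 and 446 CPM in the mutant, and the 15 amnion markers to 1260 CPM and to 2020 and 2346 CPM. The ExE-Mech markers were at 198 CPM in the wild type and at 356 and 439 CPM in the mutant, and the epiblast markers at 2434 CPM and at 2070 and 1013 CPM. At Day 14 the amnion markers summed to 1804 and 1500 CPM in the wild type and to 2407 and 2456 CPM in the mutant. The trophoblast markers summed to 140 and 142 CPM in the wild type and to 1244 and 763 CPM in the mutant. The 9 epiblast markers summed to 1664 and 1761 CPM and to 304 and 550 CPM, and the 10 ExE-Mech markers to 170 and 344 CPM and to 848 and 408 CPM. The 11 mesoderm markers summed to 1013 and 1240 CPM in the wild type and to 452 and 242 CPM in the mutant. Only the 10 endoderm markers overlapped between the genotypes, with 203 and 123 CPM against 239 and 161 CPM.

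The ExE-Mech-like cells had the lowest unadjusted edgeR p-values of the mutant comparison (0.0030 at Day 12 and 0.0057 at Day 14). ISL1 differed by -3.40 ± 0.76 at Day 12 (adjusted p = 0.33) and by -2.77 ± 0.70 at Day 14 (adjusted p = 0.20). Both calls turned on the tool, since DESeq2 gave adjusted p of 0.0099 and 0.0070. The 10 ExE-Mech markers were all detected in each of these sums and summed to 5414 CPM in the wild type and 3916 and 6327 CPM in the mutant at Day 12. At Day 14 they summed to 4282 and 7359 CPM in the wild type and to 9255 and 13790 CPM in the mutant. The 15 amnion markers summed to between 62.8 and 166 CPM in all 7 sums, with 82.5 and 120 CPM in the wild type and 90.1 and 166 CPM in the mutant at Day 14. The 14 trophoblast markers were higher in the mutant sums, with 611 CPM against 1299 and 1249 CPM at Day 12, and with 1486 and 1364 CPM against 1737 and 1992 CPM at Day 14. Their part in the ISL1 difference was not tested. At Day 12 the wild type had a single ExE-Mech-like sum, that of library 2, so its share of the error comes from the spread within other groups. In trophoblast-like cells of that library ISL1 was at 2.65 CPM, against 0.745 and 1.06 CPM in the mutant Day 12 libraries. The part of a level high over the whole library was not tested.

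**Figure D5:**
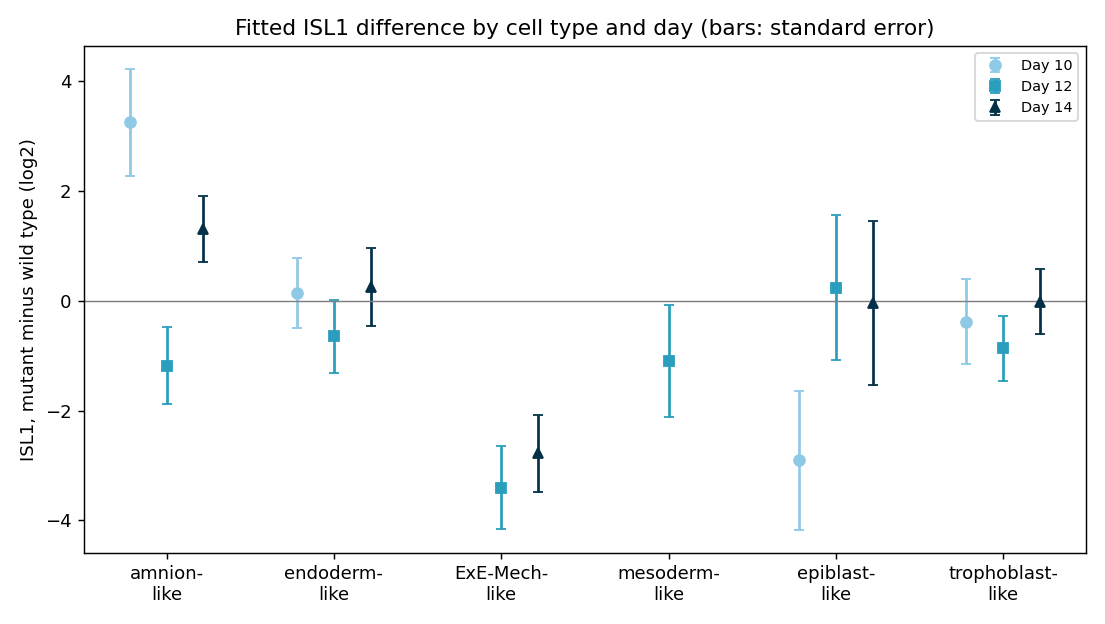
Fitted difference in ISL1 between mutant and wild type (vertical axis, log2) in each cell type (horizontal axis) on the 3 days of culture, with bars of 1 standard error; mesoderm-like cells at Day 10 and Day 14 are not drawn since the only mutant sum of at least 5 cells had no ISL1 UMI. The ExE-Mech-like values are -3.40 and -2.77, and none of the points passed the FDR of 1%.

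In the other types the differences were smaller than 2 standard errors, with 1 exception. Endoderm-like cells gave 0.14 ± 0.64, -0.65 ± 0.66 and 0.25 ± 0.72 on the successive days (adjusted p from 0.92 to 1). Trophoblast-like cells gave -0.38 ± 0.77, -0.86 ± 0.59 and -0.01 ± 0.59 (adjusted p from 0.54 to 1), and mesoderm-like cells -1.09 ± 1.02 at Day 12 (adjusted p = 0.90). Epiblast-like cells gave 0.24 ± 1.32 and -0.04 ± 1.50 on the later days and -2.90 ± 1.26 at Day 10 (adjusted p = 0.96), where the wild-type libraries had 2.47 and 1.87 CPM and the mutant library 0.272 CPM from 4 UMIs. The standard errors leave room for changes of more than 2-fold in each of these types.

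Whether the genotype effect differed between types was tested at Day 14 by an interaction with the library as a block. Between amnion-like and endoderm-like cells it differed by 1.43 ± 0.70 (adjusted p = 0.61, 0.184% of 7069 genes called). Between amnion-like and ExE-Mech-like cells, a pair chosen after the effects had been seen, it differed by 4.15 ± 0.56 (adjusted p = 0.0095, 0.159% of 11287 genes called). The mutant ExE-Mech-like levels (1.04 and 0.405 CPM) were near the trophoblast-like ones (0.808 and 1.02 CPM), so the ExE-Mech-like part of this difference is no exact size. The second call was lost in 5 alternatives, among them uncorrected counts (adjusted p = 0.016) and the unnamed clusters counted as amnion-like (3.39, adjusted p = 0.073).

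Between days, ISL1 passed the FDR of 1% in none of the 34 contrasts of a type and genotype, 8 of which had an unadjusted p under 0.05. The alternatives are given for 12 of these contrasts, of which DESeq2 called 3 and edgeR without the filter on low counts called 7. All genes together were called in 0.114% of 376526 gene tests. At Day 10 wild-type amnion-like cells had 11.7 CPM in the library of doubtful label. The 4 such cells of the other Day 10 library, with 49.2 CPM, were too few to be fitted. The later levels were 191 CPM in the only Day 12 library with an amnion-like sum, and 45.8 and 143 CPM at Day 14. The difference was 4.02 ± 0.99 for Day 12 (adjusted p = 0.19, DESeq2 adjusted p = 0.0099) and 3.02 ± 0.91 for Day 14 (adjusted p = 0.24). The first sets 1 library against 1, so its error and the DESeq2 call come wholly from the spread within other groups. In the same sums the epiblast markers were at 5820 CPM at Day 10, at 2434 CPM at Day 12 and at 1664 and 1761 CPM at Day 14. The trophoblast markers were at 964 CPM, at 81.3 CPM and at 140 and 142 CPM, and the part of either list was not tested. Mutant amnion-like cells differed by -0.41 ± 0.71 between Day 10 and Day 12 and by 1.08 ± 0.74 between Day 10 and Day 14. Between Day 12 and Day 14 they differed by 1.49 ± 0.60 (adjusted p = 0.36). Over the same days their epiblast markers went from 2070 and 1013 CPM to 304 and 550 CPM. Their mesoderm markers went from 696 and 1001 CPM to 452 and 242 CPM, and the part of either list was not tested.

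The largest day difference among these types with counts in every group was in mutant ExE-Mech-like cells. ISL1 was lower than in the Day 10 library by 4.34 ± 0.76 at Day 12 (log2 fold change -4.34, adjusted p = 0.23) and by 5.05 ± 0.78 at Day 14 (-5.05, adjusted p = 0.049), and DESeq2 gave adjusted p of 0.00011 and 4.3e-07. The Day 10 group is 1 library with 59 such cells, in which 37 cells had an ISL1 UMI and the summed ExE-Mech markers, 2461 CPM, were the lowest of the 8 sums. The trophoblast markers were at 409 CPM in the Day 10 sum, at 1299 and 1249 CPM at Day 12 and at 1737 and 1992 CPM at Day 14, and their part was not tested. Wild-type mesoderm-like cells had 3.94 ± 0.94 at Day 12 over Day 10 and -4.59 ± 1.07 at Day 14 against Day 12, both resting on wild-type Day 12 library 2. In these sums the epiblast markers were at 8932 and 4445 CPM at Day 10, at 3154 CPM at Day 12, and at 8153 and 1618 CPM at Day 14. The part of these markers was not tested. The study took the mesodermal cells of Day 10 as likely extraembryonic mesoderm and those of Day 14 as embryonic mesoderm. The mesoderm-like label does not separate them, so these day differences may not lie within a single cell type.

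Of the LIM-homeodomain family and its partners, 4 of the 21 listed genes have an identifier paired with a symbol here, and they differed in place from ISL1. Identifiers came from the study's lists of genes that differ between these cells. The matched genes here and in the lists below were thus selected on these data. LDB2, an adaptor that bridges LIM proteins, had a median of 15.3 CPM in amnion-like cells, 15.8 CPM in epiblast-like and 26.9 CPM in mesoderm-like cells, and was at 0.05 CPM in trophoblast-like cells. LHX1, a LIM-homeodomain factor of the early embryo, was highest in endoderm-like cells with a median of 154 CPM against 10.8 CPM in amnion-like cells. LMO2, a LIM-only protein best known from blood formation, was also highest in endoderm-like cells (45.0 CPM), and LMO4 in trophoblast-like cells (342 CPM). In the amnion-like fits none of the 4 was lower, and 1 was higher in the wild type at Day 14 (LDB2, beside 2.8% of all genes) and 2 in the mutant at Day 12 (LDB2 and LHX1, beside 6.66%). None was higher in the other amnion-like fits.

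Of the heart-field list, in which ISL1 is best known, 2 of 12 genes were matched, of which HAND2 is described here. HAND2, a bHLH factor of heart and limb, had a median of 11.9 CPM in amnion-like cells against 147 CPM in the ExE-Mech-like. It passed as higher in ExE-Mech-like cells in the wild-type fits of Day 12 and Day 14 (beside 4.65% and 9.76% of all genes) and in the mutant fits of the same days (beside 14.0% and 10.4%), and in none of these fits as higher in amnion-like cells.

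Of the BMP list 8 of 13 genes were identified, and 4 of them (BMP4, ID1, ID2 and ID4) had their highest median in amnion-like cells. BAMBI was highest in ExE-Mech-like, MSX1 in mesoderm-like, and MSX2 and ID3 in trophoblast-like cells. BMP4, a secreted ligand, reached medians of 215 CPM (amnion-like), 155 CPM (ExE-Mech-like) and 117 CPM (mesoderm-like), and MSX1, a homeodomain factor that responds to BMP, had 89.7 CPM in amnion-like and 108 CPM in mesoderm-like cells. BAMBI, a decoy receptor, had 610 CPM in amnion-like cells and a higher median of 766 CPM in the ExE-Mech-like, and ID1, an inhibitor of bHLH factors, 1108 CPM in amnion-like cells. Of the 8 genes, 1 was higher in wild-type amnion-like cells at Day 10 (beside 0.828% of all genes), 4 at Day 12 (beside 0.432%) and 5 at Day 14 (beside 2.8%), the last with a median difference of 2.08. In mutant amnion-like cells 8 were higher at Day 12 (beside 6.66%) and 7 at Day 14 (beside 3.5%), and none was lower in any of these fits. Since the 8 genes were matched through the study's lists of differing genes, no excess over all genes is read from these counts. No listed gene passed in any contrast of mutant and wild type. Of 220 such tests of 14 genes, 19.1% had an unadjusted p under 0.05, beside 10.7% of the 188263 tests of all genes. The lists behind the identifiers include the study's mutant against wild-type genes, so no genotype effect is read from the higher share. BMP4 in amnion-like cells was at 309 and 215 CPM in the wild-type and at 178 and 189 CPM in the mutant Day 14 libraries.

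The study's ISL1 regulon, the set of genes it assigned to ISL1 from wild-type cells of this series, has 481 members, of which 125 have an identifier here. The wild-type counts are therefore not independent of the list. The matched members also come from the study's lists of genes that differ between these cells, mutant cells included. Unlike the other lists, the regulon as a set stayed among the clustering genes. The mutant counts are thus not independent either. Of 124 tested in the wild-type Day 14 fit, 62 were higher in amnion-like cells (beside 2.8% of all genes) and none lower (beside 44 of 12095 genes). In the mutant 71 of 122 were higher (beside 3.5%) and none lower (beside 37 of 10844 genes). In the mutant against wild-type fit of amnion-like cells at Day 14, 2 of 120 were higher (beside 0.151% of all genes) and none lower. As only 4 of all 9255 genes were called lower, the latter is no result about the regulon. The study, which tested single cells, reported regulon members among the genes lower in mutant amnion.

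The genes whose level followed ISL1 most closely were ranked over 59 sums of a type in a library, which share libraries, as a description without a test. The 10 with a symbol and the highest Pearson correlation of log2(CPM + 1) were SPARCL1 (r = 0.757), RASGRP1, CNFN, HOXD12 (r = 0.727), BAALC, PTK7, WNT6 (r = 0.704), HOXD10, MTUS2 and CLIC5 (r = 0.686), out of 989 with a symbol. WNT6 is 1 of the amnion markers that named the clusters. HOXD12, a homeobox gene of posterior structures, had a median of 51.3 CPM in amnion-like cells and was listed at 0 in endoderm-like and trophoblast-like cells. RASGRP1, CNFN and BAALC had higher medians in endoderm-like cells, 11.9, 62.8 and 4.94 CPM, than in amnion-like cells, 10.8, 32.3 and 4.03 CPM. SPARCL1, a secreted matrix protein, had 22.4 CPM in amnion-like and 1.22 CPM in endoderm-like cells.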

How the data were processed

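Reads were aligned and counted by the authors in Cell Ranger 3.1.0 against the Ensembl annotation of Macaca_fascicularis_5.0. They kept genes seen in 3 cells or more, filtered cells and removed free RNA with SoupX. The deposited corrected values are expected counts in whole numbers, and the deposited uncorrected values are counts. Both are unscaled UMIs. No cell was removed here. Symbols came from 1020 pairs in the study's supplementary lists of genes that differ between cells of this series. No genome of this build was held, so no coordinates are given. Cells of each day were clustered with Seurat 5.3.0 (reciprocal PCA, 5000 features, 30 dimensions, resolution 0.8). A name needed 3 markers in 25% of cells and leading genes that did not go against it. This rule replaced 2 earlier versions after clusters had been seen. UMIs were summed per library and type (at least 5 cells) and tested with edgeR 4.0.16 (TMM, filterByExpr, quasi-likelihood, two-sided, Benjamini-Hochberg, FDR 1%), which was tested on simulated data. The simulation gave all genes a common spread and changed only well-counted genes, so it does not cover the low ISL1 sums. DESeq2 1.42.0 was an alternative. The library numbers are the batches of the labels and were tried as a block. In the trophoblast-like sums, the only ones checked, deviations of same-numbered libraries from their group means correlated by 0.014 at Day 12 and 0.058 at Day 14 between genotypes. Over all 10 pairs of groups they correlated by -0.36 to 0.22. The neighbour tests were added later. Named were ISL1, the listed genes and the 10 most alike, and a listed gene of the heart-field list is not reported here. The gene and its lists were chosen with earlier results of these data known. Intervals are exact (95%) and cover counting error only.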

Additional observations from a re-analysis of the deposited data

Results flagged for a closer look

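The effect of genotype on ISL1 at Day 14 differed between amnion-like and ExE-Mech-like cells by 4.15 on the log2 scale in a test of the interaction, with higher values in mutant amnion-like cells (241 and 194 CPM against 45.8 and 143 CPM) and lower ones in mutant ExE-Mech-like cells (1.04 and 0.405 CPM against 4.94 and 5.56 CPM). The pair of types was chosen after their effects had been seen, and each group is 2 libraries. Neither effect passed on its own in edgeR. The call for the difference was lost in 5 alternatives, among them uncorrected counts (adjusted p = 0.016) and the unnamed clusters counted as amnion-like (3.39, adjusted p = 0.073). In the mutant amnion-like sums the trophoblast markers were higher (1244 and 763 CPM against 140 and 142 CPM) and the epiblast markers lower (304 and 550 CPM against 1664 and 1761 CPM), and their part was not tested. Trophoblast-like cells of the same mutant libraries had 0.808 and 1.02 CPM, so the ExE-Mech-like part of the difference is no exact size.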

How the results depend on the processing

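The 56 ISL1 differences reported were recomputed under the alternatives, which gave 817 values. Of these values, 757 kept their direction and their side of the threshold, and none of the 27 that changed direction started from a call. The 56 include 12 of the 34 day contrasts, and their only calls were 10 between types and 1 interaction. Most of the values kept are thus differences without a call that stayed without one. The cause of the changes was not tested unless the alternative itself shows it. DESeq2 called ISL1 in 2 contrasts of mutant and wild type (ExE-Mech-like, -3.39 at Day 12 and -2.81 at Day 14) and in 3 between days (wild-type amnion-like Day 12 over Day 10, 4.05; mutant ExE-Mech-like Day 12 and Day 14 over Day 10, -4.34 and -5.10), and placed mutant Day 14 ExE-Mech-like and trophoblast-like cells at -2.76 and -2.41 against the other types. Without the filter on low counts, 1 contrast of mutant and wild type passed (amnion-like Day 10, 3.27) and 7 between days (wild-type amnion-like 3.96 and 3.01 over Day 10; mutant amnion-like Day 14 over Day 12, 1.42; wild-type mesoderm-like 3.89 and -4.56; mutant ExE-Mech-like -4.32 and -5.05), and mutant Day 12 epiblast-like (-2.18) and ExE-Mech-like cells (-2.19) passed against the other types.

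Clusters made without integration passed 1 day contrast (wild-type amnion-like Day 14 over Day 10, 5.16). They also gave calls against the other types for wild-type Day 12 mesoderm-like (3.05), wild-type Day 14 epiblast-like (-3.16) and mutant Day 14 ExE-Mech-like (-3.25) and trophoblast-like cells (-3.10), and changed the sign for wild-type Day 10 mesoderm-like (0.026) and Day 14 ExE-Mech-like cells (-0.051) and for the mutant effect in epiblast-like cells at Day 12 (-0.40) and Day 14 (1.52). With at least 20 cells per sum, ExE-Mech-like and trophoblast-like cells of mutant Day 14 passed (-3.15 and -2.77), wild-type Day 10 trophoblast-like cells did not (-1.76), and the mutant effect at Day 14 became -0.39 in endoderm-like and 0.038 in epiblast-like cells. Resolution 1.6 gave mutant effects in epiblast-like cells of -0.028 at Day 12 and 0.15 at Day 14. Names by the highest score, chosen after seeing the data, gave 1.16 for epiblast-like and 0.011 for trophoblast-like cells at Day 14, and -0.13 for wild-type Day 12 ExE-Mech-like and 0.20 for mutant Day 12 epiblast-like cells against the other types. Without the library as a block, the calls for wild-type Day 10 trophoblast-like (-2.19) and Day 12 amnion-like (4.87) and epiblast-like cells (-3.61) were lost. The interaction of amnion-like with ExE-Mech-like cells missed the threshold with uncorrected counts (4.21), resolution 1.6 (3.82), names by the highest score or the unnamed clusters added (both 3.39) and no library block (3.94).

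Leaving out each replicate in turn was possible for the contrasts of genotype, of days and the interactions, and changed the direction of 9 differences. The 27 differences between types had no such check, since 1 remaining library left no estimate of spread. The mutant effect ranged from -1.25 to 0.027 and from -0.38 to 1.21 in endoderm-like cells at Day 12 and Day 14, from -1.25 to 1.62 and from -1.68 to 0.93 in epiblast-like cells at the same days, and from -0.68 to 0.021, -1.51 to 0.31 and -0.25 to 0.20 in trophoblast-like cells on the successive days. Between days, mutant amnion-like cells at Day 12 against Day 10 ranged from -1.80 to 0.25 and mutant ExE-Mech-like cells at Day 14 against Day 12 from -1.45 to 0.64. Thinning to 5000 UMIs moved the median share of cells with an ISL1 UMI to 35.5% for amnion-like, 4.35% for endoderm-like and 0.346% for trophoblast-like cells. A replicate block for the batch number, which treats same-numbered libraries of both genotypes as paired, changed no call and turned the sign of the mutant effect in trophoblast-like cells at Day 10 (0.032). Groups of 1 or 2 pools of embryos, few amnion-like cells and at most 396 ISL1 UMIs per library limit all of these values.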
